A study of Homo sapiens with 2 samples.

Results

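The genes described here are 9 secreted ligands that act on blood or lymph vessels: the prokineticins PROK1 and PROK2, the vascular endothelial growth factor (VEGF) family members VEGFA, VEGFB, VEGFC and PGF, the angiopoietins ANGPT1 and ANGPT2, and the fibroblast growth factor FGF2. They were taken by gene symbol from the deposited tables, in which all 9 were found among 19198 named genes. The set was also selected on measured values, the PROK1 levels of these libraries, which had been described as present only in the NICD1 cells. PROK1 was in fact listed above 0 in both, and its difference is given as a description. The study overexpressed NICD1, the intracellular domain that is released when the receptor NOTCH1 is activated, in A549 cells, an established human lung adenocarcinoma line, and set them beside A549 cells that carried the vector (A549-NICD1 and A549-Vector). Per the study's methods such stable lines were made by viral infection and antibiotic selection, and the labels do not say whether a line was 1 clone. PolyA RNA of 1 library per condition was sequenced, so no difference has a replicate check, no test could be made, and every interval covers counting error only.

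The libraries had depths of 48528434 reads (A549-NICD1) and 48602848 reads (A549-Vector). FPKM stands for reads scaled to gene length and to library depth. NOTCH1, which holds the introduced domain, had 2441 reads in the vector cells and 1293833 in the NICD1 cells, the direction of the labels. The cell line markers went against the labels of both libraries. Of 16 genes listed as markers of A549, 11 were under 1 FPKM in both, with KRT7, KRT19, FGA and FGB listed at 0, while 8 of 9 genes listed as markers of HEK293, a human embryonic kidney line, were at 1 FPKM or more in both. The A549 markers summed to 173 FPKM in A549-Vector against 321 FPKM in A549-NICD1, carried by KRT8 and KRT18. The HEK293 markers summed to 348 against 317 FPKM, with CDKN2A the highest of them at 139 and 138 FPKM. The part of either marker set in the values of the ligands was not tested, and A549 is used here as the name on the labels.

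Angiogenesis is the growth of new vessels from existing ones. VEGFA binds the endothelial receptors FLT1 and KDR, VEGFB and PGF bind FLT1, and VEGFC acts mainly through FLT4 on lymphatic vessels. ANGPT1 activates the receptor TEK (also called TIE2) and thereby steadies vessels, while ANGPT2 often counters it. FGF2 acts through FGF receptors with heparan sulfate as a co-receptor. PROK1, also known as endocrine gland-derived VEGF, has no sequence kinship with VEGFA. It signals, as PROK2 does, through the G protein-coupled receptors PROKR1 and PROKR2. Tumor cells often secrete VEGFA, and Notch signaling in endothelial cells is known to restrain sprouting in response to it.

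PROK1 was the 1 ligand past a 2-fold difference between the libraries, and its start region held fewer CpG dinucleotides than those of the other ligands that could be read. RefSeq windows from 250 bases before to 50 bases after the gene start (build GRCh38.p14) were matched for 6 of the 9 ligands. VEGFA, ANGPT1 and ANGPT2 had no matched window, so their CpG counts are not known here. The windows of PROK1, of its paralogue PROK2 and of PGF, the ligand with the next higher log2 fold change, are shown from 5′ to 3′ on the strand of the gene, with each CpG dinucleotide in capitals.
PROK1, chr1:110450899-110451198, plus strand: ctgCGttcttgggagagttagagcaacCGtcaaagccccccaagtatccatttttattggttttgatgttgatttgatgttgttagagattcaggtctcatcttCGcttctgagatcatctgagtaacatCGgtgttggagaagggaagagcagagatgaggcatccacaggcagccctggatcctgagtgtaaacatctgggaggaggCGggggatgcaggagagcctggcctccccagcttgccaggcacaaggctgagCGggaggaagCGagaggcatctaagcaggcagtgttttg
PROK2, chr3:71785099-71785398, minus strand: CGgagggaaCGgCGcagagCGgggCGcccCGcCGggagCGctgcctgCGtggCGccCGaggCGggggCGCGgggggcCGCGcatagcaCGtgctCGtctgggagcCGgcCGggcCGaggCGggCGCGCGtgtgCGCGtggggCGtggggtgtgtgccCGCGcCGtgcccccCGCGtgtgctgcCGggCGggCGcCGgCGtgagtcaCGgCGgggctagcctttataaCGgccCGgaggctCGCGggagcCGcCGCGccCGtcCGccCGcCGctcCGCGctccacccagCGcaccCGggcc
PGF, chr14:74955715-74956014, minus strand: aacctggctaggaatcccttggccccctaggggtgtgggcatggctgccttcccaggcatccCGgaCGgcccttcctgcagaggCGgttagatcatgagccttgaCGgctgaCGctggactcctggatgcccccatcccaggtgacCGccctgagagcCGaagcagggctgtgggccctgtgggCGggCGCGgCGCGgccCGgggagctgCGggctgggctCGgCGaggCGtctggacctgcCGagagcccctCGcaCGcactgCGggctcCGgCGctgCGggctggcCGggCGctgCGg
The PROK1 window held 7 CpG dinucleotides at a GC content of 52.3%, and the PROK2 window 55 at 82.3%. The windows of PGF, which has 2 listed starts, of VEGFB, VEGFC and FGF2 held 27 to 42 CpG dinucleotides. Among 35116 such windows of all genes the median was 14 CpG dinucleotides, and 39.3% had as few as PROK1 or fewer, so the PROK1 window lay near the lower middle of all genes and PROK2 at the upper extreme.

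Both strands of these windows were searched for short motifs. The letters TGGGAA, the core of the site of RBPJ, the DNA-binding partner of NICD1, stood in the first PGF window and in none of the 6 other windows of these ligands, PROK1 included. They stand in 24.0% of all windows. The longer form GTGGGAA, which contains that core, stood in none of the 7 windows and in 6.25% of all windows. The hypoxia element core GCGTG stood in every window except that of PROK1 and in 36.5% of all windows, and the GC box GGGCGG had the same pattern with 45.0% of all windows. The other form of the hypoxia core, ACGTG, stood in the PROK2 window only and in 21.4% of all windows. Each of these motifs contains a CpG, so their presence is not independent of the CpG counts above. A match or its absence describes these letters in these windows only.

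PROK1 mRNA was barely detected in A549-Vector, with 1 read or 0.0150 FPKM, and reached 170 reads or 2.55 FPKM in A549-NICD1. The ratio of reads, scaled between the libraries, was 177 with a 95% Clopper-Pearson interval from 31.3 to 7021. The wide interval reflects the single read in A549-Vector. On the log2 scale with 0.5 reads added the fold change was 6.88 (interval 4.97 to 12.8), which ranked 2 among 13349 genes for which the libraries together held 100 reads or more. PROK1 met that filter through A549-NICD1 alone and was selected on these levels, so its rank is a description. The rank holds for 0.5 reads added and was not taken with larger pseudocounts, under which the PROK1 value was lower. PROK1 lies at chr1:110451200-110457354 on the plus strand (GENCODE 29, GRCh38), and the length behind its values was 1372 bases. An antisense gene in that annotation, AL358215.1, shares 850 bases with it on the opposite strand and is not analysed here. The study describes the sequencing as strand-specific. Whether the counting used the strand is not given in the sources used here. Reads of such a pair can be told apart only if the strand was kept in the library and used in counting.

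PROK2, which is known for roles in the olfactory bulb and in circadian output as well as in angiogenesis, had 51 reads (0.663 FPKM) in A549-Vector against 54 reads (0.703 FPKM) in A549-NICD1. Its log2 fold change of 0.14 had an interval from -0.44 to 0.72 that held 0. The gene lies at chr3:71771656-71785206 on the minus strand. PROK1 therefore held 2.21% of the summed prokineticin FPKM in A549-Vector against 78.4% in A549-NICD1, while the sum went from 0.678 to 3.26 FPKM. In bulk RNA, a few cells with much PROK1 and many cells with little cannot be told apart.

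**Figure D1:**
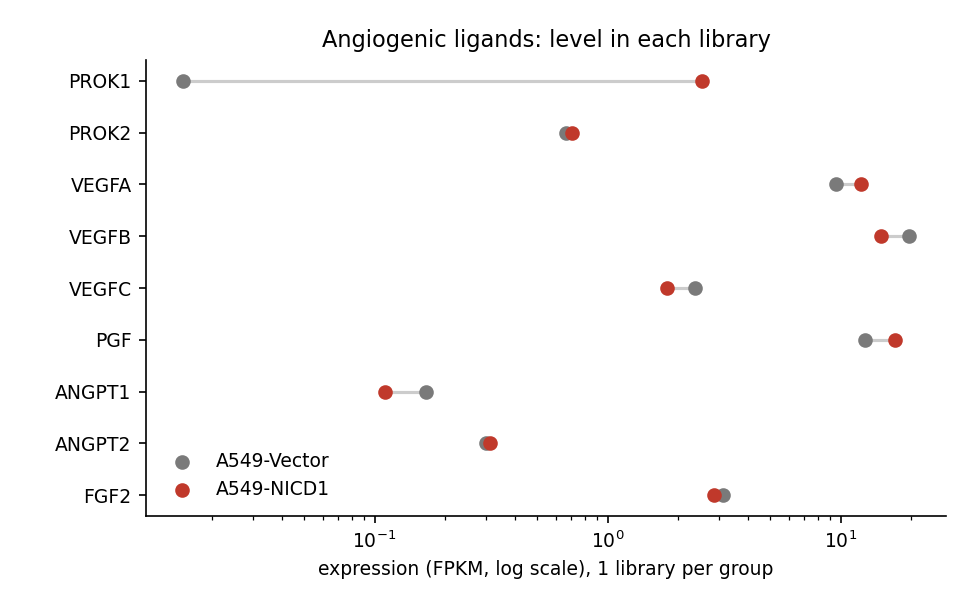
Expression of the 9 ligands in the A549-Vector library (grey) and the A549-NICD1 library (red), in FPKM on a log scale, with 1 point per library and a line joining the points of each gene. PROK1 goes from 0.0150 to 2.55 FPKM, while the points of each of the 8 other ligands lie close together.

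The VEGF family ligands VEGFB, PGF and VEGFA were the most abundant of the 9 per length of gene, and the scaled ratios of the 4 family members lay between 0.785 and 1.40. VEGFA, the main driver of endothelial growth and permeability, had 1606 reads (9.53 FPKM) in A549-Vector against 2063 reads (12.3 FPKM) in A549-NICD1. Its scaled ratio was 1.34 (interval 1.25 to 1.43). PGF, the placental growth factor that binds FLT1 but not KDR, was at 12.7 FPKM (1169 reads) and 17.1 FPKM (1569 reads), with a ratio of 1.40 (interval 1.29 to 1.51). Both ligands were thus higher in A549-NICD1 by more than counting error.

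The other VEGF family ligands lay in the opposite direction. VEGFB, a ligand of FLT1 linked to metabolic and survival roles rather than to sprouting, had 1684 reads (19.7 FPKM) in A549-Vector against 1276 reads (15.0 FPKM) in A549-NICD1, with a ratio of 0.788 (interval 0.732 to 0.848). VEGFC, the lymphatic growth factor, was at 2.37 FPKM (241 reads) and 1.80 FPKM (182 reads), with a ratio of 0.785 (interval 0.644 to 0.956). With higher values of VEGFA and PGF and lower values of VEGFB and VEGFC, the summed FPKM of the family, VEGFD included, was 44.5 in A549-Vector against 46.2 in A549-NICD1. VEGFB held the largest share of that sum in A549-Vector, 44.4%, and PGF the largest in A549-NICD1, 37.1%. The share of VEGFA was 21.4% and 26.5%, and that of VEGFC 5.33% and 3.89%. These are totals per gene, so splice forms of VEGFA with different binding to heparan sulfate could not be separated.

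The differences within the VEGF family were of a size that many genes had between these libraries. Among the genes with at least 100 reads summed, the middle 95% of log2 fold changes ran from -0.69 to 0.66, and 12.8% of the genes lay at least as far from 0 as VEGFA did at 0.42. The same share was 10.1% for PGF at 0.48, 17.2% for VEGFB at -0.34 and 16.9% for VEGFC at -0.35. The spread between replicates was not measured, and these shares do not replace it.

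**Figure D2:**
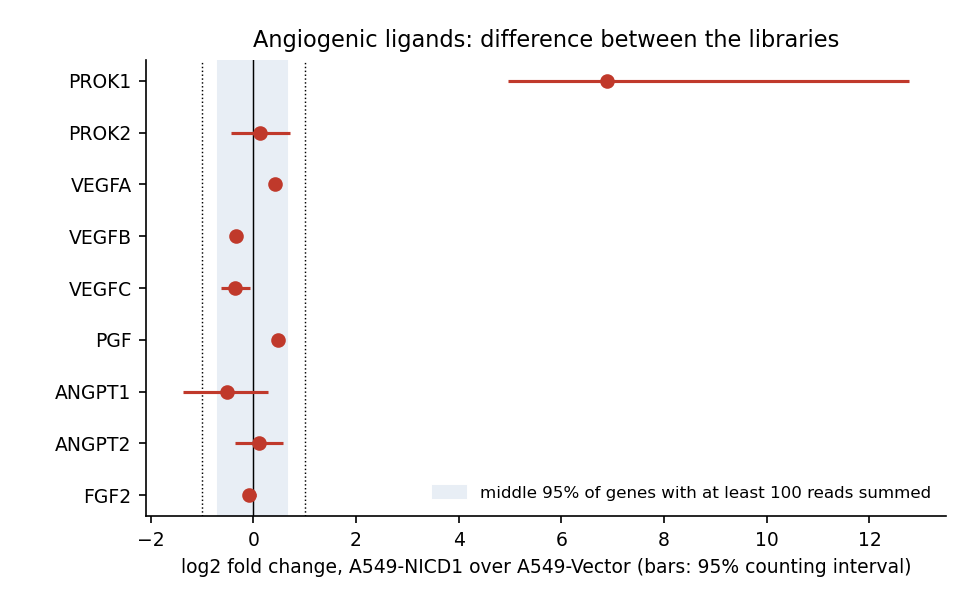
Log2 fold change of A549-NICD1 over A549-Vector for the 9 ligands, with 95% counting intervals as bars, dotted lines at a 2-fold difference and a shaded band from -0.69 to 0.66 for the middle 95% of genes with at least 100 reads summed. PROK1 stands at 6.88 far outside the band, and the points of the 8 other ligands lie inside it.

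The angiopoietins were hardly expressed in either library. ANGPT1, the agonist of TEK, had 33 reads (0.166 FPKM) in A549-Vector against 22 reads (0.111 FPKM) in A549-NICD1, and its log2 fold change was -0.52 with an interval from -1.38 to 0.29. ANGPT2 had 76 reads (0.300 FPKM) and 79 reads (0.312 FPKM), a log2 fold change of 0.11 with an interval from -0.36 to 0.59. For both genes the interval held 0, and that of ANGPT1 also held a 2-fold lower level. ANGPT2 (chr8:6499651-6563409) lies wholly inside MCPH1 on the opposite strand, and MCPH1 had 4530 and 4900 reads. The sequencing was described as strand-specific. Reads listed under ANGPT2 could belong to MCPH1 if the strand was not kept in the library or not used in counting. ANGPT1 lies at chr8:107249482-107498055.

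FGF2, basic fibroblast growth factor, had 1034 reads (3.14 FPKM) in A549-Vector against 943 reads (2.87 FPKM) in A549-NICD1. Its ratio of 0.948 had an interval from 0.867 to 1.04, which held 1. FGF2 (chr4:122826708-122898236) shares 9540 bases with NUDT6 on the opposite strand, which had 87 reads in each library. Antisense genes also share 188 bases with VEGFA and 22608 bases with VEGFC. The remaining positions are chr6:43770184-43786487 for VEGFA, chr11:64234538-64238793 for VEGFB, chr4:176683538-176792727 for VEGFC and chr14:74941834-74955784 for PGF.

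In A549-Vector the order of levels per length was VEGFB, PGF, VEGFA, FGF2, VEGFC, PROK2, ANGPT2, ANGPT1 and PROK1. In A549-NICD1 PGF came before VEGFB, and PROK1 moved from the last place to the fifth, between FGF2 and VEGFC. By exact Poisson intervals of the level, PROK1 in A549-NICD1 (2.18 to 2.97 FPKM) overlapped FGF2 (2.69 to 3.06 FPKM) and not VEGFC (1.54 to 2.08 FPKM). The intervals of PGF (16.3 to 18.0 FPKM) and VEGFB (14.2 to 15.8 FPKM) in that library did not overlap. Among all genes, 44.1% had a lower FPKM than PROK1 in A549-NICD1, against 16.4% in A549-Vector, so PROK1 reached a middle rank and not a high one. VEGFA, PGF and VEGFB stood above 61.7%, 67.7% and 77.2% of all genes in A549-Vector, and above 67.6%, 74.8% and 72.0% in A549-NICD1.

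Across the 9 ligands, 1 was above a 2-fold difference and 0 were below one, beside 4.37% of 15326 genes above and 2.23% below. All 9 passed the filter of at least 10 reads in a library, PROK1 through A549-NICD1 alone. Nearest to the 2-fold line on its inner side were ANGPT1 at -0.52 and PGF at 0.48, and on the outer side stood PROK1 alone. The counting interval lay above 0 for 3 ligands (PROK1, VEGFA and PGF), beside 28.8% of all genes tested, and below 0 for 2 (VEGFB and VEGFC), beside 29.4%. These shares are near the background and are not a result about the ligands. The median log2 fold change was 0.11 over the 9 ligands and 0.02 over the 8 without PROK1, against -0.0025 over all genes tested.

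**Figure D3:**
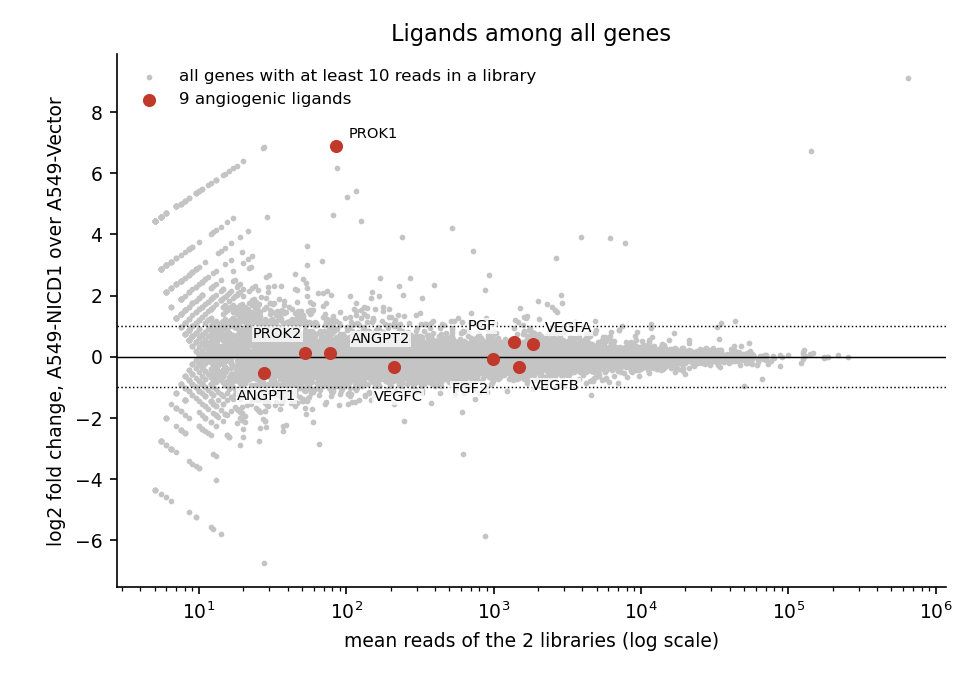
Log2 fold change of A549-NICD1 over A549-Vector against the mean reads of the libraries on a log scale, with grey points for the 15326 tested genes and red points for the 9 ligands. PROK1 lies above nearly all genes of similar depth, and the other ligands lie within the grey cloud between the dotted 2-fold lines.

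A fixed number of 5 genes nearest to PROK1 was listed, so how many genes shared its pattern was not counted. By closeness of the log2 fold change among genes with at least 100 reads summed, the nearest 5 were RFC4 (6.74), TFF1 (6.16), KCNA5 (5.43), SPRY4 (5.22) and NOTCH1 (9.11). TFF1, KCNA5 and SPRY4 had 2, 5 and 5 reads in A549-Vector against 172, 227 and 197 reads in A549-NICD1, and were thus, like PROK1, near 0 in A549-Vector and modest in A549-NICD1. RFC4, a subunit of the clamp loader of DNA replication, differed from these in its level, with 2728 reads (39.5 FPKM) in A549-Vector against 281203 reads (4075 FPKM) in A549-NICD1. In the NICD1 cells it was thus in the range of NOTCH1, which was at 5.40 FPKM in A549-Vector against 2865 FPKM in A549-NICD1. With 2 libraries this likeness rests on a single difference per gene.

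The genes next to PROK1 on chromosome 1 did not share its difference. Of the 5 nearest listed genes on each side, 9 had at least 10 reads in a library. Of these 9, 0 passed a 2-fold difference in either direction, beside 4.37% of all tested genes above and 2.23% below. The closest, LAMTOR5, an abundant subunit of the Ragulator complex at 43.2 kb, had 2353 reads in A549-Vector against 2273 in A549-NICD1, and its log2 fold change was 0.01. The potassium channel genes KCNA2 and KCNA3 on the other side had values of -0.21 and -0.61. The range over the 9 genes was -0.61 (KCNA3) to 0.57 (SLC6A17), and KCNA10 was listed at 0 in both libraries.

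**Figure D4:**
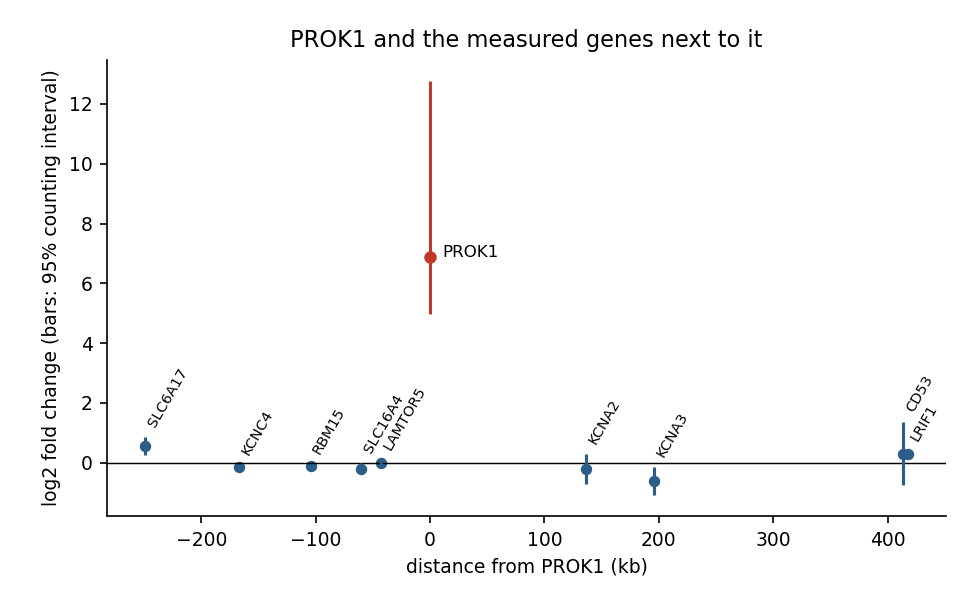
Log2 fold change of A549-NICD1 over A549-Vector, with 95% counting intervals as bars, for PROK1 (red) and the 9 tested genes nearby (blue), against their distance from PROK1 in kb. PROK1 stands alone at 6.88 between neighbours that run from -0.61 to 0.57.

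The share of genes past a 2-fold difference can be set beside the CpG count of their start regions. Of 1495 tested genes with a window of 7 CpG dinucleotides or fewer, 13.1% were above a 2-fold difference and 6.35% below, against 2.58% and 1.44% of 10288 genes with more. The former genes had a median of 100 reads in A549-Vector and the latter 1897, so depth moved with the CpG count, and its part in this difference was not tested.

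The receptors of these ligands were present for VEGFs and FGFs, and scarce for prokineticins and angiopoietins. Of 19 receptors and co-receptors, 17 passed the filter, 3 were above a 2-fold difference and 0 below, with a median log2 fold change of 0.07, beside 4.37% of all tested genes above and 2.23% below. The 3 were PROKR1, TEK and KLB, all under 1 FPKM in both libraries. PROKR1, a receptor of PROK1, had 12 reads in A549-Vector and 39 in A549-NICD1, a ratio of 3.38 (interval 1.73 to 7.09), and PROKR2 had 1 read and 0. TEK had 12 and 60 reads, a ratio of 5.20 (interval 2.77 to 10.6). KLB, the co-receptor of endocrine FGFs, had 76 and 177 reads. The receptor of VEGFA, VEGFB and PGF, FLT1, was at 9.81 and 14.9 FPKM, and its log2 fold change was 0.66 (interval 0.60 to 0.71). KDR, the main signaling receptor of VEGFA, was at 0.292 and 0.146 FPKM, and its log2 fold change was -0.94 (interval -1.51 to -0.40). FLT4, the receptor of VEGFC, was at 17.4 and 17.9 FPKM, and the VEGF co-receptors NRP1 and NRP2 at 17.4 and 14.2 FPKM and at 5.42 and 3.27 FPKM. FLT1 and FLT4 were thus abundant where KDR was not. SDC2, a heparan sulfate carrier with the highest mean level on the list, was at 18.9 and 26.7 FPKM. The values of PROKR2, FLT1, KDR, NRP2 and the FGF receptors were chosen for mention after they had been seen.

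Since TEK and KDR also mark endothelial cells, 12 endothelial markers were examined. They summed to 7.96 FPKM in A549-Vector against 7.72 FPKM in A549-NICD1, and 10 of the 12 were under 1 FPKM in both, all but ESAM and SOX18. PECAM1 had 0 and 9 reads, CDH5 had 9 and 2, VWF had 20 and 8 and EMCN had 1 and 0, so these markers were at or near 0. CLDN5 had 64 and 62 reads, ESAM 210 and 205 and SOX18 369 and 350. Of 10 markers of fibroblasts and mural cells, 7 were under 1 FPKM in both libraries, with COL1A2 and FAP listed at 0. They summed to 18.8 FPKM in A549-Vector against 12.5 FPKM in A549-NICD1, and their part in the differences of the ligands was not tested.

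Other ligands of the same families were mostly silent. Of 23 such genes 15 passed the filter, of which 3 were above a 2-fold difference and 2 below, beside 4.37% and 2.23% of all tested genes. The median log2 fold change was -0.07. FGF6 went from 1 to 10 reads, FGF17 from 3 to 14 and FGF10 from 8 to 16, while FGF19 went from 21 to 5 and VEGFD from 12 to 4. All 5 were under 0.3 FPKM, and the interval of the log2 fold change held 0 for FGF10 (-0.25 to 2.49) and VEGFD (-3.62 to 0.19). The highest levels were those of FGF11 (5.30 and 4.87 FPKM) and FGF13 (3.34 and 5.71 FPKM), which encode FGF homologues that stay inside the cell, and of FGF9 (1.16 and 0.992 FPKM). FGF13 had a log2 fold change of 0.83 (interval 0.76 to 0.89). That interval would be wider if its recovered reads, 3303 and 5634, are a multiple of the true ones.

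Of 26 other secreted factors known to promote angiogenesis, 22 passed the filter, 4 were above a 2-fold difference and 0 below, beside 4.37% and 2.23% of all tested genes. A positive log2 fold change was found in 15 of the 22, beside 49.5% of all tested genes, and the median was 0.34. CCN1 (listed as CYR61), a matricellular protein, went from 11.1 to 25.4 FPKM, a ratio of 2.38 (interval 2.22 to 2.55). HBEGF, a ligand of the EGF receptor, went from 3.91 to 8.19 FPKM, a ratio of 2.17 (interval 1.94 to 2.44). CXCL8 (interleukin 8) had 3 and 23 reads, a ratio of 7.97 (interval 2.41 to 41.5), and HGF had 10 and 26 reads. The most abundant factor, MDK (midkine), was at 233 and 232 FPKM, followed by CCN1 and EGFL7 (17.8 and 14.0 FPKM).

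Of 18 genes listed as secreted inhibitors of angiogenesis, 15 passed the filter. Of these 15, 0 passed a 2-fold difference in either direction, beside 4.37% of all tested genes above and 2.23% below. A negative log2 fold change was found in 13 of the 15 and a positive one in 2, with a median of -0.25. Among all tested genes, 49.5% had a positive one. The list counts VASH2 (log2 fold change -0.31), whose place among inhibitors is not certain. ADAMTS1, a protease that can bind VEGFA, was at 27.8 and 18.0 FPKM (log2 fold change -0.57, interval -0.63 to -0.52), and SERPINF1, which encodes pigment epithelium-derived factor, at 37.4 and 28.3 FPKM. SPARC, a collagen-binding protein with context-dependent roles, was at 55.9 and 71.0 FPKM and was higher.

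The enzymes that process or release bound factors showed 0 of 12 tested genes past a 2-fold difference. Among all tested genes, 4.37% were above one and 2.23% below. The median log2 fold change of the enzymes was -0.21. It was lower in 9 of the 12 and higher in 3, beside 49.5% of all tested genes higher. FURIN, a proprotein convertase that can cleave VEGFC, was higher at 35.1 and 47.9 FPKM. SULF2, which edits heparan sulfate, was at 14.1 and 9.97 FPKM, and PCSK7 at 10.6 and 11.5 FPKM. ADAMTS3, which activates VEGFC, was at 3.84 and 2.51 FPKM. The oxygen-sensing genes that govern VEGFA also had 0 of 9 past a 2-fold difference, beside the same shares of all tested genes. Their median was -0.05, with 8 of the 9 lower and 1 higher. The counting interval lay below 0 for 4 of them, beside 29.4% of all tested genes, and above 0 for 0, beside 28.8%. HIF1A was at 50.1 and 49.6 FPKM, VHL at 35.2 and 33.9 FPKM and EGLN2 at 36.1 and 33.7 FPKM. EPAS1, a paralogue of HIF1A, was at 8.03 and 4.70 FPKM, and its log2 fold change was -0.72 (interval -0.82 to -0.61). ADAMTS3 and EPAS1 were named after their values had been seen.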

How the data were processed

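Gene expression was measured by sequencing of polyA RNA in 1 library of A549-NICD1 and 1 of A549-Vector cells, grouped by their labels. The authors deposited 1 value per gene and library, treated here as FPKM from the values. Submitters' processing notes name Bowtie2, HTSeq and hg38 without versions. The study describes the sequencing as strand-specific, while the labels name the NEBNext Ultra RNA kit. The annotation and the use of strand in counting are not given in the sources used here.

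Whole reads were recovered from the deposited FPKM values. The commonest ratio between low values gave the ratio of depths (1.00), and GENCODE 29 transcript lengths then gave depths of 48528434 reads for A549-NICD1 and 48602848 for A549-Vector. At these depths all 17178 genes above 0 had whole reads at some length, and the length nearest to a transcript of the gene was taken. For the 9 ligands this was also the smallest possible length. Recovered reads of all genes summed to 109% (A549-NICD1) and 110% (A549-Vector) of depth, hence some other genes may carry a multiple of their true reads. The ratio of such a gene is unaffected, but its counting interval is too narrow and it passes a filter on reads too easily. The 27 rows whose gene names had turned into date numbers were dropped.

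Log2 fold changes were taken on reads plus 0.5 and set relative to depth, corrected by trimmed mean log ratio (30% of ratios and 5% of expression trimmed at each end), with a factor of 0.963 for A549-NICD1. This understates the change of low genes. Genes were tested where 1 library held 10 reads or more, and intervals are 95% Clopper-Pearson intervals, or exact Poisson intervals for levels. The libraries had no stated molecular identifiers, so intervals cover counting error only. No p-value is given. Python 3.11.15, numpy 2.4.6, pandas 2.3.3 and scipy 1.17.1 were used, and the steps were tested on simulated data.

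The ligands and all lists were chosen with earlier results of these data known. Named were the 9 ligands, genes overlapping them, of each pathway list up to 6 genes past a 2-fold difference and the 3 highest in mean FPKM, the 5 genes nearest to PROK1 in fold change, NOTCH1, and genes said to be named after their values were seen. Alternatives covered scaling, pseudocount and the filter on reads.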

Additional observations from a re-analysis of the deposited data

How the results depend on the processing

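All 9 ligands kept the sign of their log2 fold change under every scaling and pseudocount tried, and PROK1 stayed the 1 ligand above a 2-fold difference, with 0 below, also under both other filters. The size of the PROK1 value depended on the pseudocount, since A549-Vector had 1 read: 4.92 with 5 reads, 4.58 with 0.1 FPKM and 1.86 with 1 FPKM, against 6.88. Values of the 8 other ligands stayed within their counting intervals. Scaling by total reads shifted the median of all genes by -0.05. The counts of all genes above and below a 2-fold difference, 670 and 342, were 325 and 118 with 0.1 FPKM, 47 and 6 with 1 FPKM, 1517 and 792 without a filter, and 163 and 86 with at least 100 reads summed. Of the pathway genes, 10 were above and 2 below. The number above was 1 with 1 FPKM and 3 with at least 100 reads summed, and the number below was 1 with 5 reads, 0 with 0.1 FPKM, 0 with 1 FPKM, 8 without a filter and 0 with at least 100 reads summed. Pseudocounts and filters act on genes with few reads, so depth limits these counts. No paired analysis was possible because a single library stood on either side.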
